A study of Mus musculus with 4 samples.

Results

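Interleukin-10 and TGF-beta with their receptors were followed as a set of 8 genes, Il10, Il10ra, Il10rb, Tgfb1, Tgfbr1, Tgfbr2, Smad7 and Ski, picked by symbol from the 31053 genes of the count matrices, where each symbol has 1 row. The study compared immune cells that infiltrate mammary tumours of 12-week-old FVB/NJ mice of 2 genotypes. PyMT mice carry the polyoma middle T oncogene, and Jagged1/PyMT mice carry Jagged1, a Notch ligand, in addition to it. The promoters that drive either transgene, the sort markers and the number of tumours pooled are not stated in the labels. GEO lists 2 samples of each genotype, yet a single matrix holds both and cells cannot be assigned to either, so each genotype was 1 library and no test between genotypes was possible. Every interval below is a 95% interval for counting error only and says nothing about the spread between mice.

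IL-10 is a secreted cytokine that dampens macrophage and dendritic cell activation. It binds a receptor made of IL10RA, which sets which cells respond, and IL10RB, which is shared with other cytokines, and signals through JAK1, TYK2 and STAT3. TGF-beta 1, the product of Tgfb1, is made as a latent complex that must be activated outside the cell, and the active ligand binds TGFBR2, which recruits TGFBR1 so that SMAD2 and SMAD3 are phosphorylated. SMAD7 blocks the activated receptor and is itself induced by the pathway, while SKI represses SMAD target genes in the nucleus. In tumours TGF-beta is known for restraining T cells, and IL-10 is known as a product of macrophages, regulatory T cells and some B cells.

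In GENCODE vM21 (GRCm38) Il10 lies on chr1:131019845-131024974, Il10ra on chr9:45253837-45269149, Il10rb on chr16:91406164-91425834, Tgfb1 on chr7:25687002-25705077, Tgfbr1 on chr4:47353222-47414931, Tgfbr2 on chr9:116084293-116175360 and Ski on chr4:155154075-155222592. Gm21970 overlaps Il10rb on the same strand and is also among the counted genes, so the split of reads between them is uncertain. RefSeq promoters (GRCm38.p6) were matched for 4 of the 8 genes. The stretches just before the start of the ligand Tgfb1, of its type II receptor Tgfbr2 and of Ski are shown because Tgfb1 is the ligand and the levels of Tgfbr2 and Ski in T cells are described below, with matches to the GC box GGGCGG and to the SMAD box CAGAC, on either strand, in capitals.

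Tgfb1, chr7:25686752-25687001, plus strand: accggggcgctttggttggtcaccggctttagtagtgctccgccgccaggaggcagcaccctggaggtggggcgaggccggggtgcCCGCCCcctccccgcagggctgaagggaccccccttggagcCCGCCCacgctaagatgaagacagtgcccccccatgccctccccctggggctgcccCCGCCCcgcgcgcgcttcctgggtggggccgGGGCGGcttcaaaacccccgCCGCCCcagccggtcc
Tgfbr2, chr9:116175364-116175613, minus strand: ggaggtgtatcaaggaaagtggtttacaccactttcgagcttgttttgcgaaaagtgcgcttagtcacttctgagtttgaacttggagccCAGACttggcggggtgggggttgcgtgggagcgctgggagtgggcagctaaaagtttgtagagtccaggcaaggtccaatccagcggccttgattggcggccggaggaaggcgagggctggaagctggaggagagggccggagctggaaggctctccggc
Ski, chr4:155222593-155222785, minus strand: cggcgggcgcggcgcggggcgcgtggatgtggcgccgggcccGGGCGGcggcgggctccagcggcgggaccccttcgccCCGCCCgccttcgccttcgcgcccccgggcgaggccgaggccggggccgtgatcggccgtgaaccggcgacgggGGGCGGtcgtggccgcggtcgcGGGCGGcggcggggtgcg

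Tgfb1 had 5 GC boxes and no SMAD box, Tgfbr2 had 1 SMAD box and no GC box, and Ski had 4 GC boxes and no SMAD box. The Ski stretch is 193 bases long, since bases inside the annotated gene were left out, and the other 2 are 250 bases long. Among 32851 mouse promoter windows of 250 bases, 32.7% held a GC box and 42.2% a SMAD box, and in the first 193 bases 23.5% and 34.9% did. None of the 3 stretches held TATAAA, which 12.4% of the 250-base windows and 8.86% of the 193-base windows held. A match is a description of letters and no evidence of binding.

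The PyMT library held 36012036 UMIs (unique molecular identifiers, each counting 1 captured RNA molecule) and the Jagged1/PyMT library 55506773. After a minimum of 500 UMIs and 250 genes and at most 10% mitochondrial UMIs, 7444 and 7875 barcodes remained with medians of 3841 and 4200 UMIs, and 70 barcodes occurred in both libraries. Cells were placed in classes by marker RNA, leaving out 709 (9.52%) and 1595 (20.3%) barcodes that carried markers of more than 1 lineage. The macrophage gate held 196 PyMT and 2132 Jagged1/PyMT cells, the B cell gate 1295 and 1167, the T cell gate 4795 and 2412, the neutrophil gate 79 and 203, and the dendritic cell gate 69 and 63. Within T cells 1395 and 660 cells were CD4 T cells, 1294 and 700 CD8 T cells, and 90 and 33 regulatory T cells. The monocyte (42 and 93), NK (25 and 13), plasmacytoid dendritic (15 and 15) and gamma-delta T (58 and 36) gates were small, and their values are given without a comparison. Each gate had high RNA of its own markers. The gates were set on these same markers, so their sums are no independent check of the classes. Macrophage-gate cells summed 14720 and 14430 CPM (counts per 1000000 UMIs of the gate) of macrophage or monocyte markers, against 241 and 202 CPM of T cell markers. The NK gate is the least certain, since Klrb1c had 9 and 2 UMIs in it. Jag1, checked first, had 5 UMIs in PyMT T cells and 249 in Jagged1/PyMT T cells (0.245 and 25.1 CPM), and in macrophages it stood at 15.9 and 10.8 CPM.

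Il10 RNA came from a few mononuclear phagocytes. In the PyMT library 118 Il10 UMIs fell in gated cells, of which 85 (72.0%, 63 to 79.9) were in macrophages, 16 in monocytes and 10 in dendritic cells. In the Jagged1/PyMT library 318 fell in gated cells, of which 280 (88.1%, 84 to 91.4) were in macrophages and 35 in monocytes. Macrophages were 3.01% of gated PyMT cells and 35.0% of gated Jagged1/PyMT cells, and they held 4.75% and 58.2% of all UMIs of gated cells, both below their part of the Il10 UMIs. A further 65 and 77 Il10 UMIs were in the barcodes left out for carrying more than 1 lineage.

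Lymphocytes held almost none of it. All T cells together had 5 Il10 UMIs in 4795 PyMT cells and 3 in 2412 Jagged1/PyMT cells, and 4 of the 5 were in regulatory T cells. Regulatory T cells are few, and 4 of 90 in PyMT (4.44%, 1.22 to 10.99) had an Il10 UMI. Their level of 6.79 CPM (1.85 to 17.4) overlaps those of PyMT dendritic cells and of free RNA. The 33 Jagged1/PyMT regulatory T cells had 0 UMIs, which still allows 9.09% of them to hold one. B cells had 2 UMIs in 1295 cells and 0 in 1167 cells, neutrophils had 0 in both libraries, and CD8 T cells had 0 in both. A count of 0 among 1167 B cells limits the share of cells with an Il10 UMI to at most 0.257%, and for 700 CD8 T cells to 0.429%. For comparison, free RNA in barcodes under 100 UMIs held Il10 at 6.19 and 7.79 CPM, above the 0.245 and 0.302 CPM of T cells.

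**Figure D1:**
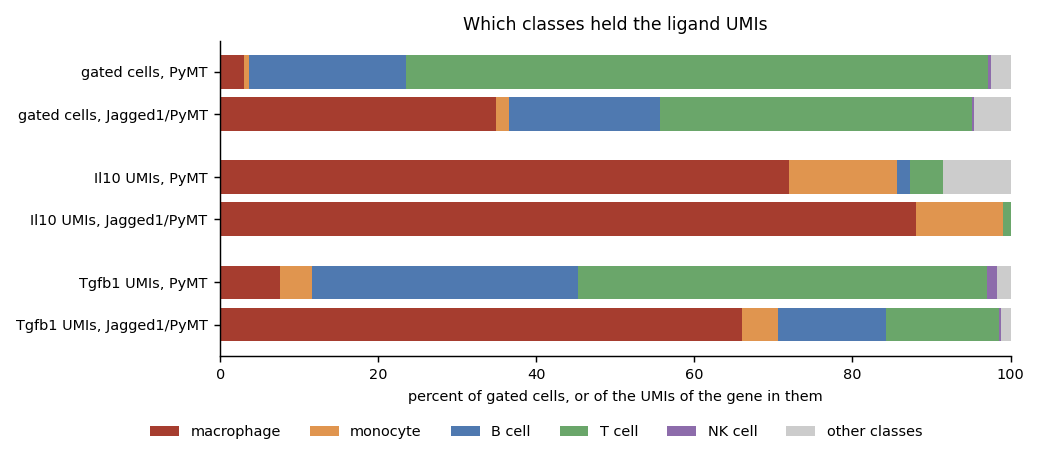
Stacked bars give the percent of gated cells, of Il10 UMIs and of Tgfb1 UMIs that fell in each marker-gated class, with 1 bar per library and the x axis from 0 to 100%. Macrophages hold 72.0% and 88.1% of the Il10 UMIs of gated cells. For Tgfb1 the T cell part (51.7% in PyMT) gives way to a macrophage part of 66.1% in Jagged1/PyMT.

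Per macrophage the Il10 level was lower in the Jagged1/PyMT library. PyMT macrophages had 64.4 CPM (51.5 to 79.7) and Jagged1/PyMT macrophages 12.6 CPM (11.1 to 14.1), a log2 ratio of -2.36 (-2.71 to -1.99), or 5.13-fold less. The intervals of the libraries do not touch, but they take every UMI as independent, although 19 PyMT cells held all 85 UMIs. As a mean over cells the levels were 32.24 and 10.96 CPM, less far apart in the same direction. The PyMT level of 64.4 CPM lay above Il10 in free RNA, at 6.19 CPM (2.49 to 12.7). The Jagged1/PyMT level of 12.6 CPM overlaps that of its free RNA, at 7.79 CPM (4.45 to 12.6). The part of free RNA in the ratio of -2.36 was not tested. Of the 8 genes it was the only one past 1.5-fold in macrophages, with 1 lower and 0 higher, where 12.3% of 11266 genes tested were at least 1.5-fold lower and 13.5% at least 1.5-fold higher.

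Positive macrophages held more Il10 UMIs each in PyMT, while the shares of positive cells overlap. In PyMT 19 of 196 macrophages (9.69%, 5.94 to 14.7) had an Il10 UMI, with a median of 4 in those cells, and 5 cells held 45 of the 85 UMIs. In Jagged1/PyMT 121 of 2132 (5.68%, 4.73 to 6.74) had one, with a median of 1, and 71 of the 121 held a single UMI. Macrophages were deeper in the Jagged1/PyMT library, with a median of 9476 UMIs against 3394, so cells were also compared at like depth. Among macrophages with 5000 to 10000 UMIs the level was 68.3 CPM (41.1 to 107) in 36 PyMT cells and 13.7 CPM (9.92 to 18.5) in 416 Jagged1/PyMT cells. With 10000 to 20000 UMIs it was 90.2 CPM (67.2 to 119) and 15.1 CPM (12.9 to 17.6), and with 20000 or more it was 52.8 CPM (29.5 to 87.0) and 10.1 CPM (7.80 to 12.8). In these 3 bins PyMT was higher and the intervals did not meet, and the 73 PyMT macrophages under 2000 UMIs and the 36 with 2000 to 5000 UMIs held no Il10 UMI, against 2 and 5 UMIs in 275 and 425 Jagged1/PyMT macrophages. After every cell was thinned to 1000 UMIs, 4 of 162 (2.47%, 0.677 to 6.20) and 13 of 2034 (0.639%, 0.341 to 1.09) still showed one, and at so few UMIs these intervals overlap.

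**Figure D2:**
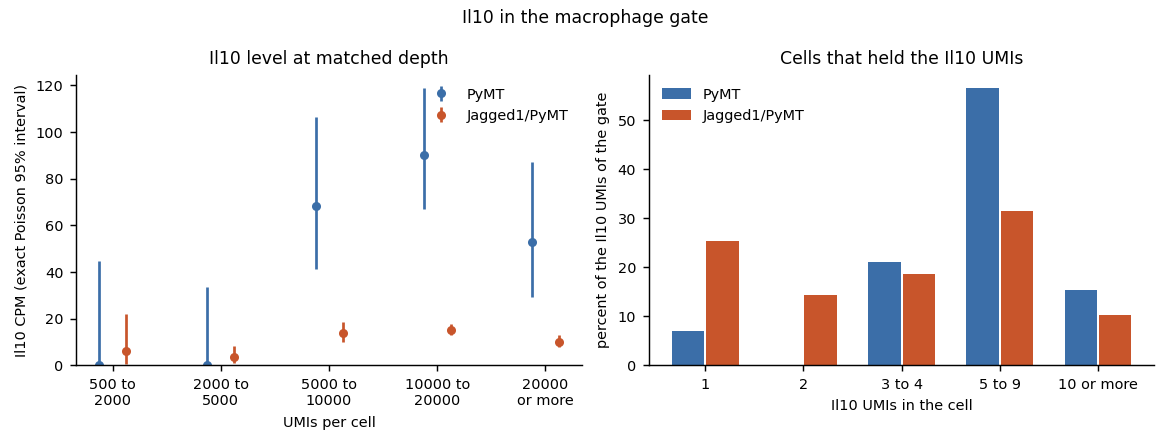
The left panel plots Il10 CPM with its Poisson 95% interval against UMIs per cell in the macrophage gate, and the right panel the percent of each library's Il10 UMIs by how many of them the cell held. PyMT lies between 52.8 and 90.2 CPM and Jagged1/PyMT between 10.1 and 15.1 CPM in the 3 deepest bins.

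The macrophage difference depended on how strictly mixed barcodes were removed. With barcodes left out at 3 UMIs of any second lineage, 160 PyMT macrophages had 34.3 CPM and 1520 Jagged1/PyMT macrophages 13.5 CPM, a log2 ratio of -1.34 (-1.94 to -0.70). With the strictest gate, of 5 core UMIs and at most 1 of another lineage, the levels were 37.6 and 11.9 CPM and the ratio -1.66 (-2.28 to -0.99). The direction and the call held in both, at a smaller size. The macrophage part of all Il10 UMIs in PyMT was 46.6% under the first of these rules. Among macrophages in the gate as used, 52 of 196 and 743 of 2132 carried 2 or more core marker UMIs of another lineage. In an unsupervised clustering all 85 PyMT UMIs fell in cluster 11, with Gdf15 and Rcan1 among its leading genes, where 71 PyMT cells had 97.6 CPM and 1158 Jagged1/PyMT cells 15.2 CPM, a log2 ratio of -2.68 (-3.05 to -2.31). Cluster 10, led by Atp6v0d2 and Il18bp, held 0 Il10 UMIs in 97 PyMT cells and 2 in 681 Jagged1/PyMT cells. Of the 2 main macrophage clusters, Il10 RNA thus lay almost only in cluster 11 in both libraries. Il10 was not kept out of the genes open to the clustering. Cells of cluster 10 also held fewer UMIs each than those of cluster 11, and the part of depth in this split was not tested.

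Monocytes held Il10 at 42.0 CPM (24.0 to 68.2) and 42.4 CPM (29.6 to 59.0). These levels rest on single cells, since 1 PyMT monocyte held 10 of 16 UMIs and 1 Jagged1/PyMT monocyte 31 of 35. Without those cells the levels were 16.1 and 4.94 CPM. Likewise all 10 Il10 UMIs of PyMT dendritic cells were in 1 cell.

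Il10ra stood above its free RNA level in macrophages, monocytes, neutrophils and B cells of both libraries, and Il10rb did so in both libraries only in macrophages among these 4. Il10ra, the ligand-binding chain, stood highest in neutrophils at 417 CPM (336 to 512) in PyMT and 219 CPM (187 to 254) in Jagged1/PyMT. Monocytes had 189 and 170 CPM, macrophages 149 and 198 CPM, and B cells 102 and 123 CPM. Neutrophils stood apart from the next class in PyMT, while in Jagged1/PyMT the intervals of neutrophils, macrophages and monocytes overlap. T cells had little, at 8.68 and 8.36 CPM, below the 41.5 and 86.6 CPM of free RNA. After thinning, 44.2% and 26.8% of neutrophils showed an Il10ra UMI, 13% and 16.0% of macrophages, 10.4% and 12.2% of B cells and 0.925% and 1.10% of T cells. Without thinning the T cell shares were 3.11% and 3.07% at median depths of 3883 and 3756 UMIs, and those of neutrophils 60.8% and 56.2% at 2275 and 2379 UMIs, so the class with the fewest UMIs per cell had the larger share.

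Il10rb, the shared chain, was highest in neutrophils in the PyMT library alone. It reached 227 CPM (168 to 299) in PyMT neutrophils and 104 CPM (83.1 to 129) in Jagged1/PyMT neutrophils, 133 and 139 CPM in macrophages, 99.7 and 106 CPM in monocytes, 51.8 and 48.1 CPM in B cells and 17.6 and 20.5 CPM in T cells. Free RNA held Il10rb at 41.5 CPM (30.5 to 55.2) and 81.3 CPM (69.4 to 94.6), and the intervals of B cells in both libraries and of Jagged1/PyMT neutrophils and monocytes do not lie above it. In Jagged1/PyMT macrophages stood above neutrophils, and their intervals do not meet. Both chains were thus lowest in T cells among the gates with 50 or more cells in each library. At 1000 UMIs per cell, both chains were seen together in 46 of 2034 Jagged1/PyMT macrophages, where 45.2 would be met if the chains were unrelated.

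Between libraries both IL-10 receptor chains passed 1.5-fold in neutrophils, Il10ra alone did in dendritic cells, and neither did in macrophages. In neutrophils Il10ra had a log2 ratio of -0.93 (-1.31 to -0.55) and Il10rb of -1.12 (-1.64 to -0.58). Together with Ski, at -1.32 (-2.66 to 0.09), and Tgfbr2, at -0.66 (-1.61 to 0.36), 4 of the 6 genes with 20 or more UMIs there were at least 1.5-fold lower and 0 higher, where 17.6% of 3721 genes were lower and 24.8% higher. The intervals of Ski and Tgfbr2 include no difference. Their calls rest on 9 and 13 UMIs of Ski and 14 and 32 of Tgfbr2. Macrophage or monocyte markers moved with this contrast: their summed level in the neutrophil gate was 181 CPM in PyMT, with 3 of 9 markers at 0, and 395 CPM in Jagged1/PyMT, with none at 0. The gates held 220509 and 795677 UMIs, so a marker at 0 was likelier in PyMT. The neutrophil marker Csf3r stood at 1515 and 927.5 CPM, while all neutrophil markers summed to 16980 and 18390 CPM. The part of these differences in the result was not tested. Macrophages themselves had Il10ra at 149 and 198 CPM.

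In dendritic cells Il10ra stood at 50.1 CPM (34.7 to 70.0) and 92.1 CPM (66.7 to 124), a log2 ratio of 0.88 (0.20 to 1.57), and Il10rb at 66.3 and 47.1 CPM, -0.49 (-1.30 to 0.27), while Tgfbr1 stood at 38.3 and 17.1 CPM, -1.16 (-2.51 to 0.02). This makes 1 gene higher and 1 lower of 5, where 9.07% of 4508 genes were higher and 13% lower. The free RNA of Il10ra differed in the same direction, at 41.5 and 86.6 CPM, and the dendritic levels do not stand above it in either library. In macrophages Il10ra was 1.32-fold higher in Jagged1/PyMT, at 0.40 (0.20 to 0.62), short of 1.5-fold, and Il10rb was 0.06 (-0.16 to 0.29). In B cells Il10ra was 0.27 (0.08 to 0.46) over the gate and 2.22 (0.95 to 3.77) in cluster 4, led by Egr2, from 6 UMIs in 65 cells and 33 UMIs in 85 cells. These Il10ra ratios in macrophages and B cells have the same direction as free RNA, whose part in them was not tested. In macrophages the ligand was past 1.5-fold and neither receptor chain was.

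**Figure D3:**
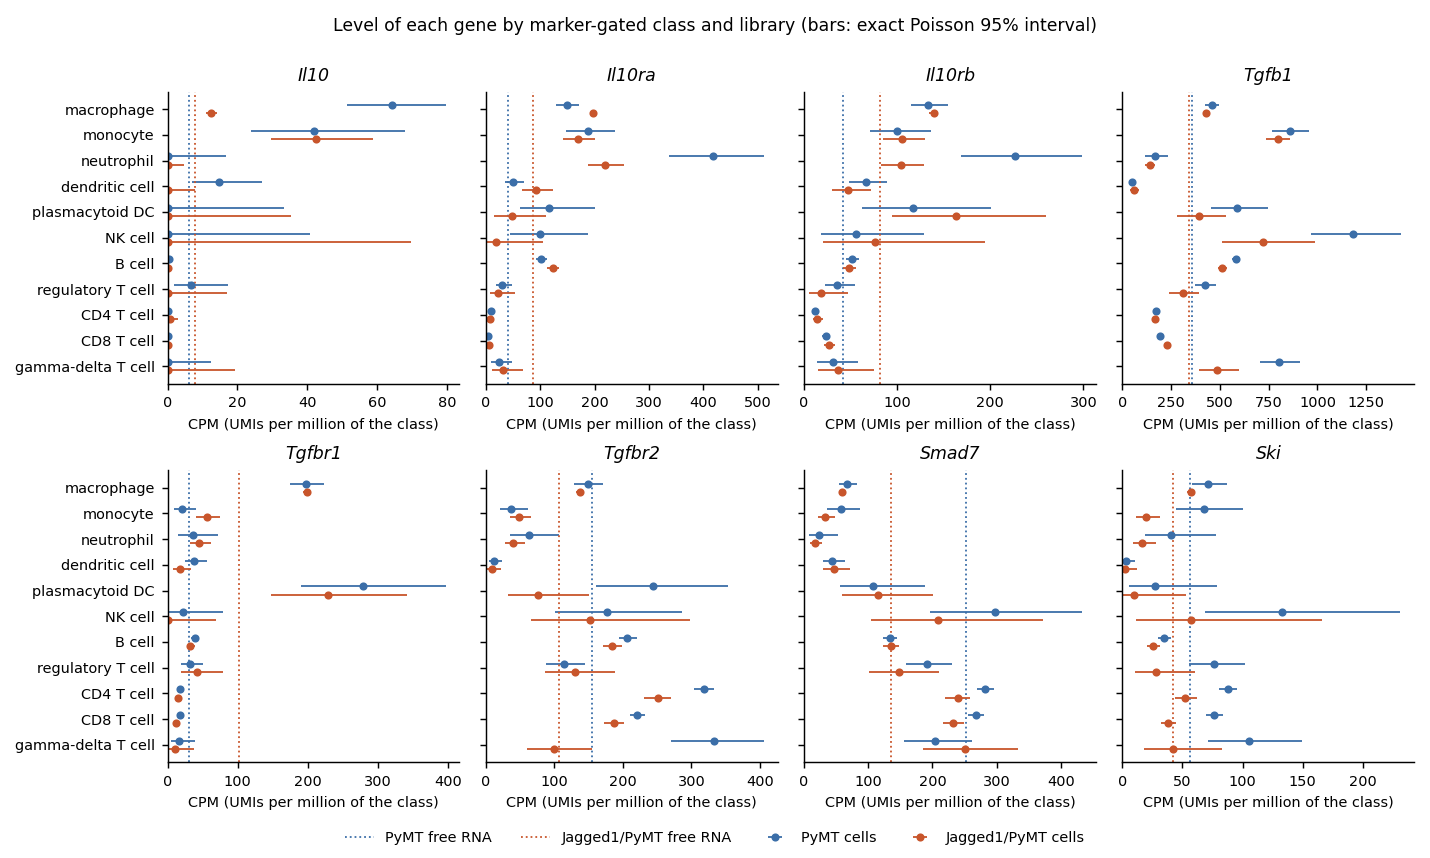
Each panel gives the CPM of 1 gene on the x axis, from 0, for the 11 marker-gated classes, with points for the library and bars for the exact Poisson 95% interval, and dotted lines for the level in free RNA. Il10 lies in phagocyte rows, apart from 7 PyMT UMIs in T and B cells and 2 Jagged1/PyMT UMIs in CD4 T cells. Il10ra and Il10rb are low in T cells, Tgfbr1 is high in macrophages and plasmacytoid dendritic cells, and Tgfbr2 and Smad7 are high in T cells.

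Genes downstream of IL-10 were described from lists chosen with earlier results known. Of 13 genes known to be induced by IL-10 in macrophages, all 13 had 20 or more UMIs in the macrophage gate, 4 stood at least 1.5-fold lower and 3 higher, where 12.3% of all genes in this gate were lower and 13.5% higher. Their log2 ratios had a median of -0.15, and those of all genes 0.03. Il1rn, which encodes the IL-1 receptor antagonist, stood at 421 and 172 CPM (-1.30, -1.43 to -1.17), Tnip3, an inhibitor of NF-kappaB signalling, at 134 and 62.8 CPM (-1.09), and Sphk1, sphingosine kinase, at 6.06 and 0.583 CPM (-3.38) from 8 and 13 UMIs. The other lower gene was Etv3, at 72.8 and 39.0 CPM, named after its values were seen. Hmox1, haem oxygenase, stood the other way at 177 and 342 CPM (0.95), as did Dusp1, a MAP kinase phosphatase, at 735 and 1432 CPM (0.96) and Zfp36, an mRNA decay factor, at 1386 and 2107 CPM (0.60). The list thus split in both directions.

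Transcription factors known to drive Il10 included none that was 1.5-fold higher in Jagged1/PyMT macrophages. Of 12, 4 were at least 1.5-fold lower and 0 higher, with a median of -0.32, against 12.3% lower and 13.5% higher over all genes. Egr3 stood at 47.8 and 8.84 CPM (-2.43, -2.85 to -2.0), Nfkb1 at 183 and 66.6 CPM (-1.46) and Rel at 249 and 146 CPM (-0.77). The other lower factor was Egr2, at 36.4 and 19.3 CPM, named after its values were seen. In CD4 and CD8 T cells 3 of these factors were higher and 0 lower, of 11 and of 10 measured, against 7.39% and 10.1% of all genes higher in these gates. Irf4 stood at 7.90 and 26.3 CPM in CD4 T cells (1.73, 1.16 to 2.31) and at 3.5 and 8.47 CPM in CD8 T cells (1.27), and Batf at 38.1 and 62.5 CPM (0.71) and at 17.8 and 32.8 CPM (0.88). Creb1 in CD4 T cells (0.61) and Ahr in CD8 T cells (1.08) were the others. CD4 T cells held 1 and 2 Il10 UMIs and CD8 T cells none.

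Of the receptor's signalling genes, 2 of 8 were lower and 1 higher in macrophages, against 12.3% and 13.5% of all genes. These were Stat5b, at 32.6 and 21.6 CPM (-0.59, -1.05 to -0.11), and, with intervals that include no difference, Stat5a and Tyk2, named after their values were seen. Jak1 (127 and 108 CPM) and Stat3 (136 and 119 CPM) were within 1.5-fold. In CD4 T cells Stat5a stood at 66.7 and 37.0 CPM (-0.85), Socs3 at 227 and 148 CPM (-0.62) and Socs1 at 78.3 and 124 CPM (0.66). SOCS proteins are feedback inhibitors of JAK signalling. The IL-10 family itself was near absent: of 9 further cytokines and receptors only Ifnlr1 had 20 UMIs in the macrophage gate, and none did in another compared gate.

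Tgfb1, the other ligand, was detected in every gate, and its level was within 1.5-fold between libraries in the 7 compared classes. Monocytes had 858 CPM (767 to 956) and 795 CPM (736 to 858), B cells 582 CPM (561 to 605) and 510 CPM (488 to 534), macrophages 457 CPM (421 to 495) and 426 CPM (418 to 435), and all T cells 202 CPM (196 to 208) and 206 CPM (198 to 216). NK cells, at 1181 CPM (968 to 1427) and 719 CPM (509 to 987.5), stood high in gates of 58 cells or fewer, as did gamma-delta T cells, at 802 CPM (703 to 911) and 487 CPM (393 to 596.5). Regulatory T cells had 424 CPM (373 to 480) and 311 CPM (241 to 395), above CD4 T cells (172 and 166 CPM) and CD8 T cells (194 and 230 CPM) in both libraries, although in Jagged1/PyMT their interval overlaps that of CD8 T cells. Dendritic cells were lowest, at 47.2 and 60.0 CPM. In PyMT the intervals of monocytes and gamma-delta T cells overlap and those of B cells and macrophages do not.

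Free RNA held Tgfb1 at 358 and 339 CPM, above the T cell, neutrophil and dendritic levels. Thinning evens out depth but leaves free RNA in the counts, so thinned shares do not bear on this limit. At 1000 UMIs 42.4% and 40.4% of B cells showed a Tgfb1 UMI, 36.4% and 32.7% of macrophages and 16.2% and 17.8% of T cells. Dendritic cells had 8.96% (3.36 to 18.5) and 4.92% (1.03 to 13.7). Without thinning, 77.6% and 75.2% of B cells, 66.3% and 81.9% of macrophages, 44.5% and 44.0% of T cells and 23.2% and 27.0% of dendritic cells had one, although dendritic cells were deepest in PyMT, with a median of 9979 UMIs.

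Between libraries Tgfb1 had log2 ratios of -0.10 (-0.22 to 0.02) in macrophages, -0.19 (-0.28 to -0.11) in B cells, 0.03 (-0.04 to 0.11) in T cells and 0.25 (0.12 to 0.38) in CD8 T cells. None of these reached 1.5-fold. The class that held most of the RNA was not the same. Of the Tgfb1 UMIs of gated cells, T cells held 51.7% (50.6 to 52.8) of 7962 in PyMT and 14.3% (13.7 to 14.8) of 14382 in Jagged1/PyMT. B cells held 33.6% and 13.6%. Macrophages held 7.57% (7 to 8.18) and 66.1% (65.3 to 66.9). These shares follow the makeup of the libraries, in which macrophages were 4.75% and 58.2% of the UMIs of gated cells. A further 1867 and 4750 Tgfb1 UMIs were in the barcodes left out for carrying more than 1 lineage. All barcodes that passed the filters held 9998 and 19267. Among gated Jagged1/PyMT cells both ligands were thus mainly macrophage RNA. The Il10 level per macrophage was past 1.5-fold lower in that library, and that of Tgfb1 was within 1.5-fold.

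Genes that store and activate latent TGF-beta were called in both directions. Of 12, 9 were measured in macrophages, 2 lower and 2 higher, with a median of -0.14, against 12.3% and 13.5% of all genes. Itgav, the integrin alpha-v chain, stood at 127 and 76.3 CPM (-0.73, -0.96 to -0.49) and Itgb8, which pairs with it to free the ligand, at 8.34 and 3.37 CPM (-1.31, -2.23 to -0.25). The higher ones, Lrrc32 and Thbs1, named after their values were seen, have intervals that include no difference. In CD8 T cells 3 of 4 were higher, against 10.1% of all genes. These were Itgav at 19.4 and 33.9 CPM (0.81), Itgb1 at 45.0 and 73.1 CPM (0.70) and Nrros, a latent TGF-beta anchor of myeloid cells, at 9.90 and 16.9 CPM (0.77). Nrros is known from myeloid cells, and the summed macrophage or monocyte markers in the CD8 T cell gate were 44.3 CPM in PyMT, with 2 of 9 at 0, and 81.6 CPM in Jagged1/PyMT, with none at 0. Their part in the CD8 differences was not tested. Of the other ligands Tgfb2 had at most 5 UMIs in a gate and Tgfb3 stood at 16.8 and 12.0 CPM in B cells.

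The 2 TGF-beta receptor chains were highest in different cells. Tgfbr1, the type I kinase, stood at 198 CPM (175 to 223) in PyMT and 199 CPM (193 to 205) in Jagged1/PyMT macrophages and at 279 and 230 CPM in the 15 and 15 plasmacytoid dendritic cells. Every other class was at 55.8 CPM or less in both libraries, among them T cells at 18.8 and 15 CPM and B cells at 38.9 and 32.7 CPM. Thinned shares were 18.5% and 16.1% of macrophages against 2.04% and 1.69% of T cells. Free RNA held 30.1 and 102 CPM, so the T cell level lies below it in both libraries.

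Tgfbr2, the ligand-binding type II chain, stood highest in lymphocytes. CD4 T cells had 318 CPM (303 to 333) and 251 CPM (231 to 271), CD8 T cells 221 CPM (210 to 233) and 187 CPM (173 to 202), B cells 207 CPM (194 to 220) and 185 CPM (171 to 199), and macrophages 149 CPM (128 to 171) and 137 CPM (132 to 142). CD4 T cells stood above CD8 T cells in both libraries, while CD8 T and B cells overlap. Dendritic cells had only 11.8 and 8.57 CPM. Regulatory T cells, at 114 and 130 CPM, were below CD4 T cells. At 1000 UMIs per cell, 27.6% and 24.0% of CD4 T cells showed a Tgfbr2 UMI and 12.3% and 12.1% of macrophages. Free RNA held Tgfbr2 at 156 CPM (133 to 180) and 107 CPM (93.4 to 122), so the CD4, CD8 and B cell levels lay above it in both libraries and that of macrophages in Jagged1/PyMT alone. In macrophages the chains were seen together in 55 of 2034 thinned Jagged1/PyMT cells, where 39.8 would be met if unrelated, and in 7 of 162 PyMT cells, where 3.70 would be. Whether they differ from unrelated chains was not tested.

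**Figure D4:**
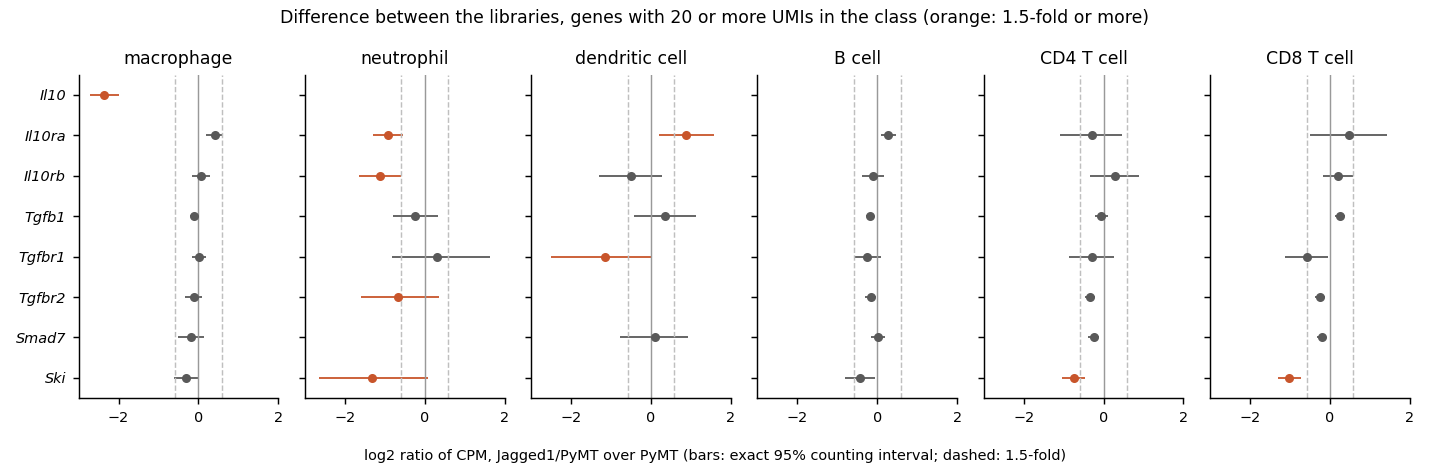
For 6 classes the log2 ratio of CPM, Jagged1/PyMT over PyMT, is plotted on the x axis for each gene with 20 or more UMIs, with bars for the exact 95% counting interval, dashed lines at 1.5-fold and orange for ratios past it. Il10 in macrophages at -2.36 is farthest from 0, and Ski is past the lower line in neutrophils, CD4 and CD8 T cells.

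TGF-beta receptor levels differed modestly between libraries in macrophages, B cells and all, CD4 and CD8 T cells. Tgfbr2 had a log2 ratio of -0.33 (-0.40 to -0.26) in T cells, -0.34 (-0.48 to -0.21) in CD4 T cells, -0.24 (-0.38 to -0.11) in CD8 T cells, -0.16 (-0.31 to -0.02) in B cells and -0.12 (-0.33 to 0.10) in macrophages. Tgfbr1 had -0.33 (-0.61 to -0.05) in T cells, -0.58 (-1.12 to -0.05) in CD8 T cells and 0.01 (-0.17 to 0.20) in macrophages. No receptor chain reached 1.5-fold in macrophages, B cells or T cells. Within CD4 T cells Tgfbr2 was at -0.04 (-0.25 to 0.16) in cluster 0 and -0.40 (-0.64 to -0.17) in cluster 1. In cluster 2 it was at -0.37 (-1.07 to 0.29). CD8 clusters 5, 6 and 7 had -0.09 (-0.25 to 0.07), -0.19 (-0.56 to 0.17) and -0.60 (-1.17 to -0.04). The makeup of the T cell gates by cluster differed between libraries, as given below. Tgfbr2 in free RNA was also lower in Jagged1/PyMT, at 156 and 107 CPM. The part of either in these ratios was not tested. In gamma-delta T cells, from 58 and 36 cells, Tgfbr2 stood at 333 CPM (270 to 406) and 99.5 CPM (59.9 to 155), 98 and 19 UMIs.

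Of the pathway's inhibitors, Smad7 was highest in T cells among the compared classes, and Ski overlapped between T cells and macrophages in PyMT and was higher in macrophages in Jagged1/PyMT. Smad7 stood at 279 CPM (272 to 287) and 237 CPM (227 to 246) in T cells, 133 and 135 CPM in B cells, 67.5 and 59.1 CPM in macrophages, 44.2 and 47.1 CPM in dendritic cells and 22.7 and 16.3 CPM in neutrophils. CD4 and CD8 T cells did not differ beyond their intervals in either library. Free RNA held Smad7 at 253 CPM (224 to 284) and 136 CPM (120 to 153), so T cells lay above it in Jagged1/PyMT alone and B cells in neither library. Its log2 ratio between libraries in T cells was -0.24 (-0.31 to -0.17), short of 1.5-fold, and free RNA was lower in Jagged1/PyMT too. The part of free RNA was not tested.

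Ski was lower in Jagged1/PyMT T cells. CD4 T cells had 87.6 CPM (80.1 to 95.7) and 52.1 CPM (43.6 to 61.8), and CD8 T cells 76.3 CPM (69.8 to 83.3) and 37.8 CPM (31.7 to 44.8). The intervals do not meet in either subset. Over all T cells 1693 and 474 UMIs gave 83.1 and 47.7 CPM, a log2 ratio of -0.80 (-0.95 to -0.65), with -0.75 (-1.04 to -0.47) in CD4 and -1.01 (-1.30 to -0.73) in CD8 T cells. Thinned to 1000 UMIs, 8.34% (7.57 to 9.17) and 4.60% (3.79 to 5.53) of T cells showed a Ski UMI. Ski was the only one of 7 measured genes past 1.5-fold in each of these gates, 1 lower and 0 higher. In T cells 7.61% of genes were lower and 8.07% higher, in CD4 T cells 10.6% and 7.39%, and in CD8 T cells 8.57% and 10.1%.

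The summed macrophage or monocyte markers also differed in these gates, at 52.5 and 113 CPM in CD4 and 44.3 and 81.6 CPM in CD8 T cells, as did the median mitochondrial share, at 3.21% and 2.47% and at 3.19% and 2.46%. Their part in the Ski result was not tested.

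In the other classes Ski also stood lower in Jagged1/PyMT, at 71.2 and 57.2 CPM in macrophages (-0.32, -0.62 to 0.00) and 34.4 and 25.6 CPM in B cells (-0.42, -0.80 to -0.05), within 1.5-fold. In B cells 0 of 7 genes were higher or lower, where 6.86% of 9213 genes were higher and 8.4% lower. Macrophages held 67.8% of the Ski UMIs of gated Jagged1/PyMT cells and T cells 25.2%, against 4.71% and 84.8% in PyMT. Free RNA held Ski at 56.6 CPM (43.6 to 72.2) and 41.9 CPM (33.5 to 51.7), lower in Jagged1/PyMT as well. The T cell level lay above it in PyMT and overlaps it in Jagged1/PyMT, and the part of free RNA was not tested.

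The T cell gates were made of different clusters in the 2 libraries. Of PyMT CD4 T cells 76.9% were in cluster 0, led by Ramp3 and Tcp11l2, and 15.1% in cluster 1, led by Cd40lg and Gpr183, whereas in Jagged1/PyMT 29.4% and 63.6% were. Within cluster 0 Ski stood at 95.3 and 64.4 CPM (-0.57, -1.05 to -0.11), and within cluster 1 at 54.2 and 45.6 CPM (-0.25, -0.80 to 0.32). In cluster 2, led by S100a6 and Ctla4, with 65 and 22 cells, it stood at 84.7 and 93.6 CPM (0.14, -1.06 to 1.22). In these 3 CD4 clusters the difference was under 1.5-fold, narrowly so in cluster 0, where the interval excludes no difference. All 3 intervals reach past 1.5-fold lower, so they cannot decide whether the CD4 call holds within clusters. Of CD8 T cells 82.4% and 71.3% were in cluster 5, led by Plaur and Ccr9, 9.82% and 17.0% in cluster 6, led by Ccl5 and Gzmm, and 2.01% and 4.71% in cluster 7, led by Gzmb and Spp1. In cluster 5 Ski stood at 74.0 and 35.9 CPM (-1.04, -1.41 to -0.69), and in cluster 6 at 98.0 and 45.8 CPM (-1.10, -1.71 to -0.51). In cluster 7, with 26 and 33 cells, it stood at 54.6 and 32.4 CPM (-0.75, -1.87 to 0.34), an interval that includes no difference. The CD8 difference was thus as large in clusters 5 and 6 as over the gate. These within-cluster ratios were added after the data were seen.

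**Figure D5:**
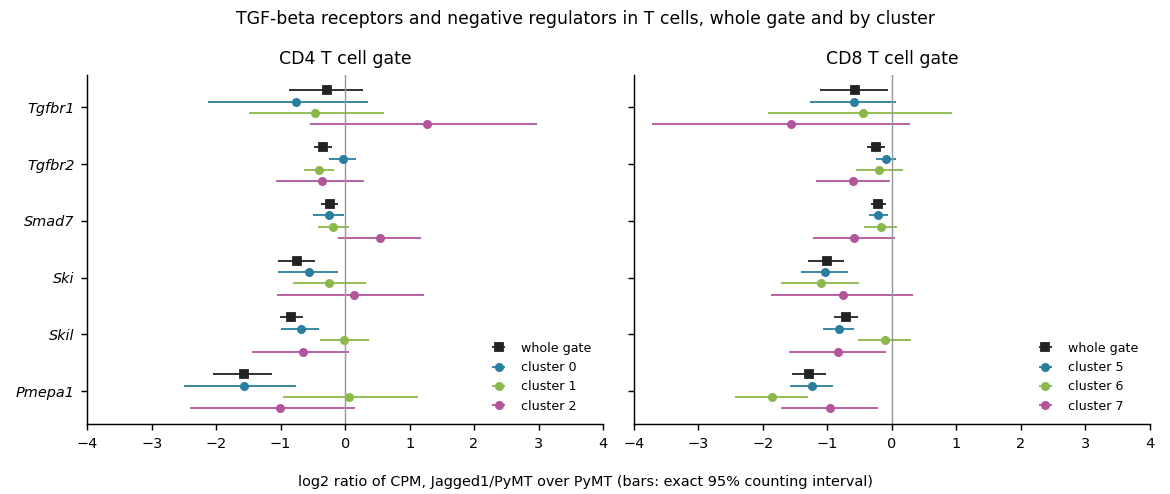
Log2 ratios of CPM, Jagged1/PyMT over PyMT, with exact 95% counting intervals are plotted for 6 genes over the whole CD4 (left) or CD8 (right) T cell gate, as squares, and within each cluster with 20 or more cells per library, as circles. Ski lies near -1 in the CD8 gate and in clusters 5 and 6, and in the CD4 gate at -0.75 with -0.25 in cluster 1.

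Skil and Pmepa1, which also restrain the pathway, were lower in the same gates as Ski and in macrophages. Skil, the SnoN repressor related to Ski, stood at 226 and 126 CPM in CD4 T cells (-0.84, -1.02 to -0.66), 146 and 89.8 CPM in CD8 T cells (-0.70) and 264 and 162 CPM in macrophages (-0.70). Pmepa1, a membrane protein that holds back SMAD signalling, stood at 56.9 and 19.1 CPM in CD4 T cells (-1.58, -2.04 to -1.14), 106 and 43.5 CPM in CD8 T cells (-1.28, -1.54 to -1.03) and 350 and 222 CPM in macrophages (-0.66). Within CD4 cluster 1 neither differed, at -0.01 for Skil and 0.05 for Pmepa1, while in cluster 0 they were at -0.69 and -1.57. Pmepa1 was lower in CD8 clusters 5 and 6, at -1.24 and -1.85, and Skil was at -0.82 in cluster 5 and -0.11 (-0.52 to 0.29) in cluster 6. In CD4 cluster 2 Skil was at -0.66 (-1.45 to 0.06) and Pmepa1 at -1.01 (-2.40 to 0.15), and in CD8 cluster 7 at -0.83 (-1.59 to -0.09) and -0.96 (-1.72 to -0.22). In macrophage cluster 11 Skil was at -0.79 and Pmepa1 at -0.85, and in cluster 10 at 0.20 (-1.45 to 2.53) and -0.45 (-1.20 to 0.39).

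Of 15 genes known to be induced by TGF-beta, 13 were measured in macrophages, 6 lower and 2 higher, with a median of -0.47 against 0.03 over all genes, of which 12.3% were lower and 13.5% higher. Skil and Pmepa1 are on this list as well. Klf10, Id3 and Ldlrad4 were also lower and Smad6 and Id1 the higher ones, all 5 named after their values were seen. In CD4 T cells 4 of 9 were lower and 1 higher (median -0.30), against 10.6% and 7.39% of all genes. In CD8 T cells 3 of 9 were lower and 3 higher (median 0.20), against 8.57% and 10.1%. The higher ones in CD8 T cells included Itgae, the CD103 integrin chain of tissue-resident T cells, at 33.1 and 69.5 CPM (1.07, 0.80 to 1.34), and Id2, an inhibitor of E proteins, at 84.9 and 130 CPM (0.61). Calls in CD8 T cells were thus equal in number in each direction.

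SMADs and their regulators were called in both directions. In macrophages 3 of 14 were lower (Skil, Zfyve9 and Smad3) and 2 higher (Smad1 and Smad6), and the intervals of the last 3 include no difference; over all genes there 12.3% were lower and 13.5% higher. In CD8 T cells 2 of 12 measured genes were lower (Skil and Smurf1) and 0 higher, against 8.57% and 10.1% of all genes. In CD4 T cells 2 of 12 were lower (Skil and Smad4, the shared SMAD, at 34.2 and 20.7 CPM) and 1 higher (Trim33, at 11.8 and 20.3 CPM). Over all genes in that gate 10.6% were lower and 7.39% higher. The further TGF-beta family ligands and receptors held 8 measured genes in CD8 T cells, 3 lower and 1 higher, against 8.57% and 10.1% of all genes. In macrophages they held 8, 0 lower and 2 higher, against 12.3% and 13.5% of all genes. The CD8 calls were Acvr1b (-1.55), Bmpr2 (-1.28) and Acvr2a (-0.66), which are activin and BMP receptors, and Tgfb3 (1.68), all at under 10 CPM. Smad3, which carries the TGF-beta signal, stood at 8.44 and 8.56 CPM in T cells. In B cells Id3, at 122 and 57.8 CPM (-1.08, -1.31 to -0.85), and Klf10, at 20.7 and 9.67 CPM (-1.10), were lower while Id2, at 38.5 and 61.9 CPM (0.69), was higher.

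Over the measured members as a set, the median log2 ratio was -0.11 in macrophages, -0.80 in neutrophils, 0.09 in dendritic cells, -0.16 in B cells, -0.24 in T cells, -0.28 in CD4 T cells and -0.21 in CD8 T cells. Over all genes tested in the same gates the medians lay between -0.05 and 0.03. The members had 20 or more UMIs in 8 of 8 cases in macrophages, 7 in each lymphocyte gate, 6 in neutrophils and 5 in dendritic cells.

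Genes with the most similar pattern were sought among 9895 genes over 15 points, each a class in 1 library with 50 or more cells, by the Pearson correlation of log2(CPM + 10). Points of 1 library share its depth and free RNA, so these values are a description. Smad7 was nearest to Ehd3 (0.984), Chd3 (0.979) and Ablim1 (0.971), and Ski to Irf2bpl (0.947), Itpkb (0.908) and Kdsr (0.905). Il10ra had among its nearest genes Kctd12 (0.959) and Plekho2 (0.947), and Il10rb was nearest to Lamp2 (0.970), Plekho2 (0.959) and Zc3h12a (0.954). Plekho2 is in the nearest 3 of both IL-10 receptor chains. Tgfbr1 had among its nearest genes Naglu (0.954), which encodes a lysosomal enzyme, and Mfsd12 (0.946), and Tgfbr2 was nearest to Rab10os (0.945), Cbwd1 (0.926) and Nol8 (0.922). Tgfb1 was nearest to Eif4g3 (0.928), Slc38a1 (0.925) and Slc25a5 (0.917). Il10 was nearest to Fam129b (0.951), Espl1 (0.945) and BC022687 (0.938), and few of the 15 points hold more than 5 Il10 UMIs.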

How the data were processed

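Single-cell RNA was measured by 10x Genomics 3' libraries of immune cells sorted from mammary tumours. The authors deposited 1 matrix of raw UMI counts per genotype, made with Cell Ranger 3.0.2 per the submitters' processing notes; the genome build is not given in the sources used here. No sample column was left unmatched (0). Barcodes needed 500 UMIs, 250 genes and at most 10% mitochondrial UMIs. A barcode joined the lineage with most core marker UMIs (at least 3) and was left out when another lineage had 3 or more and at least 10% of the leading count. This gate rule was chosen after seeing the data. In the T cell gate 207 and 128 cells held only 3 or 4 core UMIs.

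Counts were summed per library and class and given as CPM with exact Poisson intervals, shares with Clopper-Pearson intervals, and ratios with exact conditional binomial intervals, all at 95%. A ratio of 1.5-fold among genes with 20 or more UMIs is named as such, with no p-value. A count of 0 was limited at 3 counts. Thinning drew 1000 UMIs per cell, which left out 34 and 98 macrophages and 37 and 44 T cells as too shallow. Doublets were treated only as barcodes of more than 1 lineage: the automatic threshold of Scrublet marked 0.0403% and 0% of cells and was not usable, so removing the 443 and 496 highest scores was an alternative. Leiden clustering (scanpy 1.11.5, resolution 1) served for within-cluster values. Ratios were tested on simulated data. The members and gene lists were chosen with earlier results of these data known. Genes named from a list are up to 3 per direction past 1.5-fold whose interval excludes no difference; others are marked as named after their values were seen. Some genes that this rule selects are not reported here.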

Additional observations from a re-analysis of the deposited data

Results flagged for a closer look

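Il10ra differed between libraries in opposite directions in 2 classes, with a log2 ratio of 0.88 in dendritic cells and of -0.93 in neutrophils, and each interval excludes no difference. The difference between the classes was not tested, since each genotype is 1 library. The dendritic value rests on 34 and 43 UMIs. Neither dendritic level stands above free RNA, which held Il10ra at 41.5 and 86.6 CPM. In the neutrophil gate the summed macrophage or monocyte markers stood at 181 and 395 CPM. The part of either in these ratios was not tested.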

How the results depend on the processing

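No paired analysis was possible because the samples of each genotype were deposited together and their cells cannot be assigned to 1 or the other; leaving out each replicate was not possible for the same reason. Of 656 alternative log2 ratios for 47 member ratios, 632 stayed within the counting interval of the value reported, 23 moved outside it and 1 changed sign among called values. Il10 in macrophages ranged from -2.41 to -1.34, and Ski from -0.97 to -0.70 in CD4 and from -1.10 to -0.90 in CD8 T cells. The cause of the changes below was not tested. The share of all genes called under each alternative is not given. The counts below therefore cannot be read as particular to the members.

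With every barcode given to its leading lineage, macrophages had 1 gene higher and 2 lower, dendritic cells 2 higher and 0 lower, CD8 T cells 1 higher, and Tgfbr1 in dendritic cells turned to 0.13. Tgfb1 shares were then 10.9% in macrophages, 47.3% in T cells and 31.8% in B cells of PyMT, and 64.2%, 14.9% and 12.2% in Jagged1/PyMT. With thinning, macrophages had 0 lower (Il10 fell below 20 UMIs), neutrophils 2 higher and 2 lower, dendritic cells 0 and 0, and CD8 T cells 2 lower. CD8 T cells also had 2 lower at 5% mitochondrial UMIs and without the top cell, and 1 higher with a mean over cells. Neutrophils had 1 higher with the gate of 5 and without the top cell, and 2 lower at 100 UMIs. Macrophages had 1 higher without barcodes over 20000 UMIs. Dendritic cells had 2 higher with Leiden clusters, 2 lower with no filter, and 0 and 0 at 100 UMIs. With Leiden clusters macrophages held 92.6% of Jagged1/PyMT Il10 UMIs, and Tgfb1 shares were 31.3% in B cells of PyMT and 60.2% in macrophages, 15.6% in T cells and 12.0% in B cells of Jagged1/PyMT. Without the top cell the Jagged1/PyMT Il10 share of macrophages was 97.6%. With the strict second-lineage rule, added after seeing the data, Il10 shares of macrophages were 46.6% and 96.5%, and Tgfb1 shares were 5.21% in macrophages and 35.7% in B cells of PyMT and 53.9% in macrophages, 18.4% in T cells and 19.7% in B cells of Jagged1/PyMT.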
